A study of Mus musculus with 9 samples.

Results

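The genes described here are those of the protamines (Prm1, Prm2 and Prm3), the transition proteins (Tnp1 and Tnp2) and the testis HMG-box protein Hmgb4, 6 genes chosen by name out of the 55414 that the count table lists. All 6 were among the 25128 genes that had at least 10 reads summed over the 9 libraries and were tested. The RNA came from mouse round spermatids (RS), the haploid cells that follow meiosis, for which the labels give the testis as tissue and WT as genotype, and no age. The study's RS were sorted by tdTomato fluorescence and forward scatter from mice that carry a Stra8-iCre driver and a Cre-activated tdTomato reporter, so a gate on reporter level and cell size defines the population. Cells were kept for 24 h in a medium that contained lactate and pyruvate, in 3 libraries for each of 3 groups. One group received vehicle (0.15% DMSO), another 24 mM oxamate, an inhibitor of lactate dehydrogenase, with 0.15% DMSO, and the last 24 mM oxamate together with 0.3 mM octyl-L2HG, a cell-permeable ester of L-2-hydroxyglutarate, at the same DMSO content. Vehicle libraries carry the numbers 1 to 3, oxamate libraries 4 to 6, and those with both compounds 7 to 9. No group received octyl-L2HG alone, so its effect was measured only on top of oxamate. The labels do not say whether the 3 libraries of a group came from separate animals or cultures, so p-values measure the spread between these libraries, which may be technical.

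During the second part of spermatid development most nucleosomes are taken apart. Testis histone variants and histone acetylation open the chromatin, the transition proteins TNP1 and TNP2 then occupy the DNA, and the small arginine-rich protamines PRM1 and PRM2 replace them and compact the sperm nucleus. The genes are transcribed in RS well before the proteins are made: the mRNAs are stored as translationally repressed particles and are read only in elongating spermatids. PRM3 shares the protamine gene cluster but is an acidic protein of the cytoplasm, and HMGB4 is a spermatid DNA-binding protein with a pair of HMG boxes and no acidic tail, which is not known to take the place of histones. Both are among the 6 by name and are described beside the other 4.

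By the gene order of RefSeq, Tnp2, Prm3, Prm2 and Prm1 are direct neighbours on mouse chromosome 16, in that order, whereas Tnp1 lies on chromosome 1 and Hmgb4 on chromosome 4. The 250 bases upstream of each start site are shown because the spermatid activator CREM is known to act on genes of this group, and because 5 of the 6 genes moved in the same direction below. They are from RefSeq on build GRCm38.p6, all on the minus strand, with Prm1 at chr16:10796824-10797073, Prm2 at chr16:10792106-10792355, Prm3 at chr16:10790915-10791164, Tnp1 at chr1:73015900-73016149, Tnp2 at chr16:10788656-10788905 and Hmgb4 at chr4:128260896-128261145. Each is written 5′ to 3′ in the direction of the gene, with the start site after the last base. Capitals mark TGANNTCA, a palindrome that relaxes the middle bases of the cyclic AMP response element TGACGTCA, or, where a window lacks it, the letters TATATA.
Prm1: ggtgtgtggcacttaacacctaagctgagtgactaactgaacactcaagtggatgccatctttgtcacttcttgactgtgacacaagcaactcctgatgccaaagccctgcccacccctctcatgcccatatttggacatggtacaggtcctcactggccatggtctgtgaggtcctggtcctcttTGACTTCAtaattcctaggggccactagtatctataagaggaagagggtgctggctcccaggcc
Prm2: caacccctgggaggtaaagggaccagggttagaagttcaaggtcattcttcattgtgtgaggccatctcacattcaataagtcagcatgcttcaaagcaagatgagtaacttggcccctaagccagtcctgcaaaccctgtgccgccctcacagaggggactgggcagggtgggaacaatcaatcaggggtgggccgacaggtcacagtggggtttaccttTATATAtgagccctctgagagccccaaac
Prm3: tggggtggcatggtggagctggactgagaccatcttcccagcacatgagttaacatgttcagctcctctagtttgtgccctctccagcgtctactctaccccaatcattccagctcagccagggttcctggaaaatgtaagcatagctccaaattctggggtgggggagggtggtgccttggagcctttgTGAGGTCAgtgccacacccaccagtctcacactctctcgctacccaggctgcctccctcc
Tnp1: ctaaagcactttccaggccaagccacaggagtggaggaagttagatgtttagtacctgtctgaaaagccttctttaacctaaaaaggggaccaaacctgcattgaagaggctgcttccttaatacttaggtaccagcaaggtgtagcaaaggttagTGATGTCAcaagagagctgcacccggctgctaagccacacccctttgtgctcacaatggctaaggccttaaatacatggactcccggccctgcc
Tnp2: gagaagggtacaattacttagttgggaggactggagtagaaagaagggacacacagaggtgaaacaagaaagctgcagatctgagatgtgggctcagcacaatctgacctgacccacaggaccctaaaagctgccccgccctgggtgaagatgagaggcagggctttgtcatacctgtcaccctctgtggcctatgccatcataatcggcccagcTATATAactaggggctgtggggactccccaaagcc
Hmgb4: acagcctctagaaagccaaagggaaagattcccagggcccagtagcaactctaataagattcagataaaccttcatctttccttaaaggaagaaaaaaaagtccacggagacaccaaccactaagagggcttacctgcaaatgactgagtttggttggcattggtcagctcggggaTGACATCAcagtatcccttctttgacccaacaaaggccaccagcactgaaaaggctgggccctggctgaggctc
TGANNTCA, which reads the same on both strands, was found in 4 of the 6 windows and in 11.9% of the 32851 windows of the same length. It lay 64 to 57 bases before the start of Prm1, 60 to 53 before Prm3, 94 to 87 before Tnp1 and 74 to 67 before Hmgb4. Prm2 and Tnp2 lacked it and held TATATA instead, 29 to 24 and 35 to 30 bases before the start, a sequence found in 5.25% of all windows on either strand. TGACGTCA itself was in none of the 6 windows and in 1.55% of all, and TATAAA, searched on both strands, matched once, on the other strand of Prm2 and overlapping its TATATA, against 12.4% of all windows. These are matches of letters and not measured binding sites.

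The libraries held between 32339533 and 39888396 counted reads. The member with the fewest reads was Prm3 in library 8, with 1322, and the one with the most was Tnp2 in library 1, with 9865, so that counting error alone was 2.75% and 1.01% of the value. The SD between the libraries of a group ranged from 1.38% of the mean for Prm1 with oxamate to 16.9% for Hmgb4 with oxamate. Oxamate library 4 stood apart from the other oxamate libraries, since its counts over all genes gave a chi-square of 18.7 per degree of freedom against library 5 and 23.3 against library 6, where libraries 5 and 6 gave 2.1. Vehicle library 1 was next, with 11.9 against library 2 and 11.3 against library 3, where libraries 2 and 3 gave 6.48. All 10 RS marker genes (among them Acrv1, Acr and Izumo1) were tested, and they summed to 2424 to 2460 CPM (counts scaled to a common library total) in the vehicle libraries, against 923 to 1030 for 10 spermatocyte genes and 7.72 to 8.52 for 8 genes of spermatogonia. Such sums depend on which genes are listed, and without a reference population they do not test the RS label.

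With vehicle, per kilobase of the longest annotated transcript, Tnp1 had the highest level of the 6, at 15818 ± 976 normalized counts per kb (SD, n = 3), followed by Tnp2 at 14719 ± 1007. They ranked 103rd and 116th of 25027 genes on this scale, and their libraries overlapped. Prm1 at 10481 ± 667 and Prm2 at 9742 ± 509 came next and overlapped each other, at ranks 215 and 240. Hmgb4 followed at 7227 ± 257, and Prm3 had the lowest level at 5062 ± 257, rank 629. With both compounds the order of the transition proteins was unchanged, but Prm1 at 6224 ± 116 and Prm2 at 6181 ± 160 normalized counts per kb were no longer above Hmgb4 at 6617 ± 657, whose libraries overlapped theirs.

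The first comparison asked what the inhibition of lactate dehydrogenase did to the RNA of these genes, and the second whether octyl-L2HG, given on top, brought them back. Oxamate lowered Prm1, Prm2, Tnp1 and Tnp2, to between 73.1% and 83.0% of the vehicle mean, although the calls of Tnp1 and Tnp2 were lost once a trend with transcript length was removed (adjusted p = 0.242 and 0.0633 by edgeR). Adding octyl-L2HG did not return these 4 towards vehicle but lowered them and Prm3, and with both compounds the 5 genes stood at 59.4% to 74.6% of vehicle. Both calls of Prm3 were lost with the length trend removed (adjusted p = 0.0600 and 0.0602 by edgeR). Hmgb4 was the member with no called difference. In these bulk libraries fewer cells of a late stage and less RNA per cell cannot be told apart.

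Prm1, the protamine that every mammal uses, had 5203, 4960 and 4583 normalized counts in vehicle libraries 1 to 3, as deposited. It had 3551, 3647 and 3575 in oxamate libraries 4 to 6 and 2976, 2868 and 2913 in libraries 7 to 9 with both compounds. All 3 groups were separate, each below the one before. The log2 fold change was -0.45 for oxamate against vehicle (SE 0.066, adjusted p = 0.000224 in edgeR's quasi-likelihood test, adjusted by Benjamini-Hochberg over all genes tested). It was -0.32 for both compounds against oxamate (SE 0.067, adjusted p = 0.00270 by edgeR) and -0.77 for both compounds against vehicle (SE 0.067, adjusted p = 1.11e-07 by edgeR). Of the 10696 genes with a known transcript length and a mean of at least 100 normalized counts, 0.617% had a lower log2 fold change than Prm1 with oxamate, and 10.7% had a lower one in the second comparison.

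Prm2, the protamine made as a longer precursor and trimmed on the DNA, showed the same order. Its normalized counts were 6933, 6513 and 6253 with vehicle, 4968, 5123 and 5000 with oxamate and 4269, 4176 and 4053 after both treatments, again with no overlap between groups. The log2 fold changes were -0.38 (SE 0.063, adjusted p = 0.000746), -0.30 (SE 0.064, adjusted p = 0.00378) and -0.68 (SE 0.064, adjusted p = 2.92e-07 by edgeR) in the same order of comparisons. Both protamine calls held under each of the 18 alternative fits in each of the 3 comparisons.

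Tnp2, the larger and zinc-binding transition protein, fell by most in the second step. It had 8765, 8025 and 7672 normalized counts with vehicle, 6291, 6662 and 6581 with oxamate and 5234, 4942 and 4580 after both treatments, so the groups did not overlap. Its log2 fold change was -0.32 with oxamate (SE 0.068, adjusted p = 0.00607) and -0.43 with octyl-L2HG added (SE 0.069, adjusted p = 0.000293 by edgeR). By the deposited counts, whose scaling differs slightly from that of the fit, its mean with both compounds was 60.3% of vehicle. Tnp1, the smaller transition protein, had 7334, 6922 and 6481 normalized counts with vehicle, 5442, 5971 and 5800 with oxamate and 4912, 4754 and 4642 with both. Those groups were also separate, with log2 fold changes of -0.26 (SE 0.066, adjusted p = 0.0192) and -0.29 (SE 0.066, adjusted p = 0.00611 by edgeR). The oxamate call of Tnp1 was lost without vehicle library 1, where the adjusted p by edgeR was 0.0953, and without vehicle library 2, where it was 0.0823. With the length trend removed the oxamate value was -0.13 for Tnp1 and -0.21 for Tnp2, neither of them called.

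Prm3, whose product is the acidic protein named above, had 2127, 1954 and 2145 normalized counts with vehicle and 1820, 2003 and 1879 with oxamate, 2 groups that overlapped, with a log2 fold change of -0.12 (SE 0.074, adjusted p = 0.425 by edgeR). With both compounds it had 1691, 1524 and 1432, below all other libraries, and the log2 fold change against oxamate was -0.32 (SE 0.074, adjusted p = 0.00707 by edgeR). That call was lost without library 5 (adjusted p = 0.0560), library 8 (0.0503) or library 9 (0.0593, all by edgeR). Against vehicle the log2 fold change with both compounds was -0.44 (SE 0.074, adjusted p = 0.000190 by edgeR), and with the length trend removed it was -0.21 (adjusted p = 0.0602 by edgeR).

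Hmgb4 gave 5227, 5602 and 5345 normalized counts in the vehicle libraries, 4488, 5973 and 6231 in those with oxamate and 5490, 4760 and 4559 in those with both. Library 4 was the lowest of all 9 for this gene and library 6 the highest, although both had received oxamate, and no pair of groups was separate. The log2 fold changes were 0.048 (SE 0.093, adjusted p = 0.862), -0.20 (SE 0.093, adjusted p = 0.196) and -0.15 (SE 0.093, adjusted p = 0.301 by edgeR). Without library 4 the second became -0.33 (adjusted p = 0.000303 by edgeR), so the absence of a call there rests on that library.

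**Figure D1:**
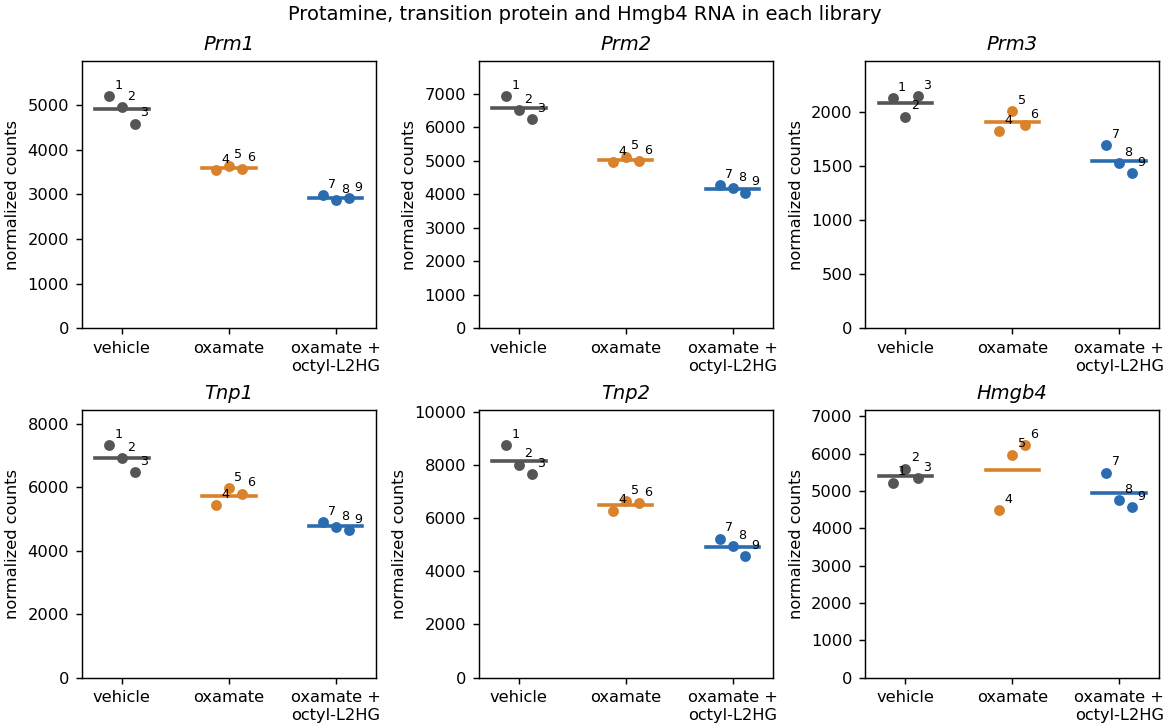
Deposited normalized counts of the 6 genes in each library, with the library number beside each point and a line at the group mean of 3 libraries; the vertical axes start at 0. Prm1, Prm2, Tnp1 and Tnp2 step down from vehicle to oxamate to oxamate + octyl-L2HG without overlap, Prm3 overlaps between vehicle and oxamate and lies below both with the 2 compounds together, and oxamate library 4 lies below oxamate libraries 5 and 6 for Hmgb4.

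By count, 4 of the 6 genes were called lower and none higher with oxamate, where 5.19% of all genes tested were called, 1.22% lower and 3.97% higher. With octyl-L2HG added, 5 of 6 were lower, where 11.2% of all genes were called, 8.06% lower and 3.18% higher. For both compounds against vehicle 5 of 6 were lower, where 18% of all genes were called, 10.6% lower and 7.48% higher. No member was higher in any comparison at an unadjusted p under 0.05 or with DESeq2, and DESeq2 called the same numbers lower. In the test of any difference among the 3 groups, which called 19.8% of all genes, the same 5 members passed and Hmgb4 had an adjusted p of 0.270 by edgeR. In that test Hmgb4 passed without oxamate library 4 (adjusted p = 0.000570 by edgeR), and Prm3 failed with the length trend removed (adjusted p = 0.0622 by edgeR). The split over all genes depended on the scaling, the test and the filter: of the genes called in the second comparison 28.3% were higher with TMM scaling, 14.3% with total counts, 43% with DESeq2 and 44.3% with no filter on low counts. In the comparison of both compounds with vehicle these shares were 41.4%, 26.8%, 51.4% and 52.6%, so that most calls turned to higher in the last 2 fits. The counts of members called were the same in these 4 fits, but with the length trend removed they were 2, 4 and 4 in the 3 comparisons, and with only the groups compared in the fit 3 were called with oxamate. All libraries of the first group lay below all of the second for 4 members in the first comparison and 5 in each of the other 2, where this held for 9.52%, 16.6% and 19.7% of all genes tested. The 6 genes had median log2 fold changes of -0.29, -0.31 and -0.62, beside -0.01, -0.04 and -0.05 over all genes tested. The first and second comparison share the oxamate libraries and the third shares libraries with both, so they are not independent. The 6 genes together took 0.0964% ± 0.00486 of the counted reads with vehicle, 0.0796% ± 0.00507 with oxamate and 0.0621% ± 0.00228 after both treatments (SD, n = 3 each).

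**Figure D2:**
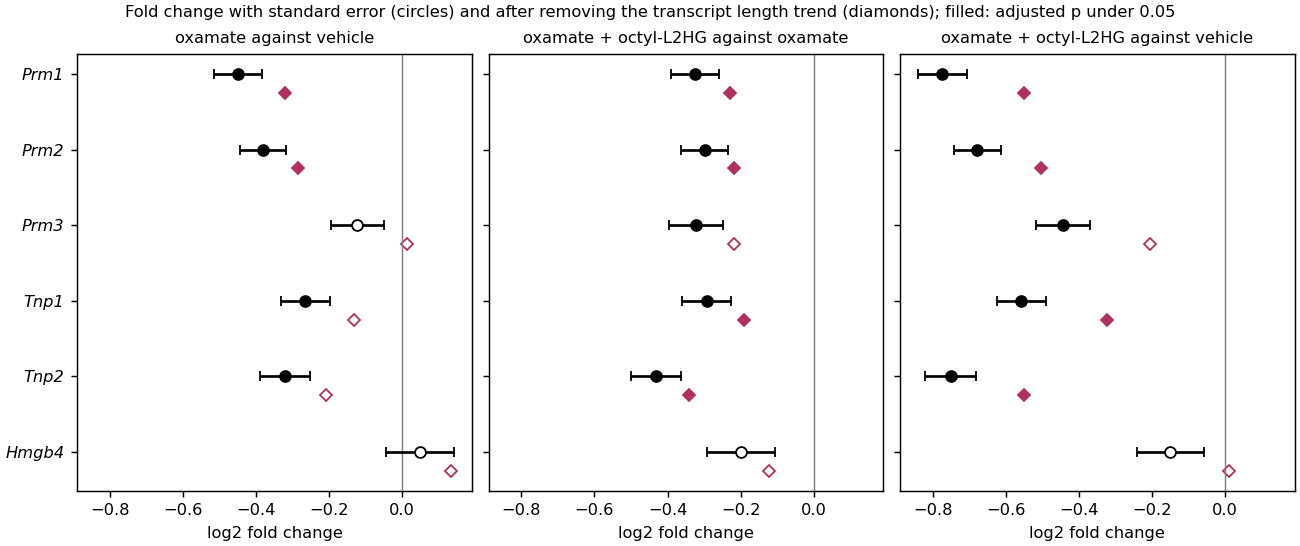
Log2 fold change of each gene in the 3 comparisons on 1 common axis, as black circles with standard errors from the edgeR fit of all 9 libraries and as red diamonds after a trend with transcript length was removed; filled symbols have an adjusted p under 0.05. Prm1 and Prm2 are filled in each position, while without the length trend Prm3 has open symbols throughout and Tnp1 and Tnp2 have open symbols with oxamate alone.

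Transcript length moved with these differences. The longest transcripts of the 6 genes have between 410 and 746 bases, and the 738 well-expressed genes with under 800 bases had medians of -0.12, -0.09 and -0.18 in the 3 comparisons, whereas the 5357 genes with 3000 bases or more had 0.06, 0.04 and 0.11. In the short class 4.74%, 19.8% and 35.6% of genes were called lower. With the length trend of each library removed, Prm1 was at -0.32 with oxamate (adjusted p = 0.00223) and -0.55 with both compounds against vehicle (adjusted p = 1.38e-06 by edgeR), and Prm2 also kept its 3 calls. Tnp1 at -0.13 (adjusted p = 0.242) and Tnp2 at -0.21 (adjusted p = 0.0633 by edgeR) lost the oxamate call and kept the other 2 at smaller values. These were -0.19 and -0.32 for Tnp1, against -0.29 and -0.56 in the main fit, and -0.34 and -0.55 for Tnp2, against -0.43 and -0.75. Prm3 lost both of its calls, with -0.22 against oxamate (adjusted p = 0.0600) and -0.21 against vehicle (adjusted p = 0.0602 by edgeR). Why short transcripts were lower in these libraries was not tested.

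**Figure D3:**
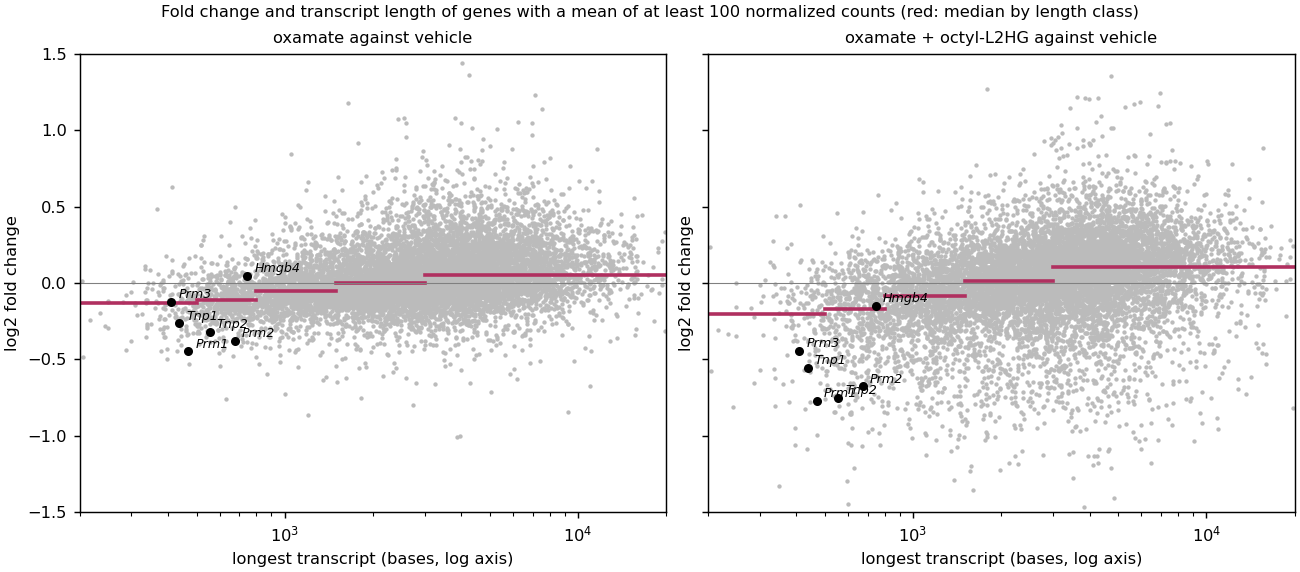
Log2 fold change against the length of the longest transcript, on a log axis, for the 10696 genes with a mean of at least 100 normalized counts, of which 18 (left) and 28 (right) lie outside the axes; red lines are medians by length class. The named genes sit at the short end, where the medians are below 0, with Prm1, Prm2, Tnp1 and Tnp2 below the median of their class in both panels.

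Ratios between members within a library need no scaling between libraries and so give a second view. They are not free of the length trend, since the longest transcripts of Prm1 and Prm2 have 469 and 674 bases. With that trend removed Prm1 and Prm2 lay closer together, at -0.32 and -0.29 with oxamate and at -0.55 and -0.50 with both compounds against vehicle. In the main fit they were at -0.45 and -0.38, and at -0.77 and -0.68. Prm1 to Prm2 was 0.750, 0.762 and 0.733 with vehicle, 0.715, 0.712 and 0.715 with oxamate and 0.697, 0.687 and 0.719 after both treatments. All 6 treated libraries lay below the 3 vehicle libraries, while the 2 treated groups overlapped, and an exact permutation test over the 3 groups gave p = 0.0143 (a test with no set direction, 1680 assignments, smallest possible p = 0.00357). Prm1 to Prm3 was 2.37 ± 0.210 with vehicle, 1.89 ± 0.0662 with oxamate and 1.89 ± 0.137 with both (SD, n = 3 each), so Prm1 came closer to the lower Prm3 with oxamate, and the mean ratio did not move further with octyl-L2HG added. Tnp2 to Tnp1 was 1.18 ± 0.0183, 1.14 ± 0.0201 and 1.03 ± 0.0402 in the same order, with the larger part of the drop after octyl-L2HG was added. The last 2 ratios are given without a test.

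Around the exchange itself, several histone genes of the list of variants were lower once octyl-L2HG was added, of which H1f7 and H1f9 are linker histones known for chromatin condensation and H3f3b is expressed in many tissues. Of the 11 tested, 4 fell and none rose against oxamate (median -0.28 on the log2 scale), and 1 fell with oxamate alone (median -0.02), where 8.06% and 1.22% of all genes tested were called lower and the medians over all genes were -0.04 and -0.01. At an unadjusted p under 0.05 the first counts were 6 and 0, and with DESeq2 they were 4 and 0. H1f7, the linker histone of the spermatid nuclear pole, was at -0.49 (SE 0.068, adjusted p = 7.04e-05) and H1f9, a spermatid linker histone, at -0.46 (SE 0.093, adjusted p = 0.00229 by edgeR) against oxamate. H2al2a, of the H2A.L.2 histones that let transition proteins load onto nucleosomes, was at -0.51 (SE 0.103, adjusted p = 0.00252 by edgeR) against oxamate. H2al2a was also the 1 variant called with oxamate alone, at -0.34 (adjusted p = 0.0478 by edgeR), a call that was lost in 8 of the 9 fits that left out a library, with adjusted p up to 0.214. It belongs to a family of near-identical genes, among which reads may have been split. H3f3b, an H3.3 gene, was at -0.30 (SE 0.081, adjusted p = 0.0186 by edgeR) against oxamate, and that call was lost without library 7, 8 or 9, with adjusted p up to 0.0952.

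In each comparison most genes that remove histones or modify protamines were not called by edgeR. Of 22 histone removal and chromatin opening factors, 1 was higher with oxamate (Pygo2, a reader of methylated H3, at 0.54) and 2 were higher and 2 lower with octyl-L2HG added, where 5.19% and 11.2% of all genes tested were called. With DESeq2 2 were higher and 1 lower with oxamate, and 6 higher and 2 lower with octyl-L2HG added. The 2 lower by edgeR were Tssk6, a spermatid kinase needed for the exchange, which went from 1218 ± 192 normalized counts with vehicle and 1106 ± 139 with oxamate to 619 ± 28.6 with both (-0.86 against oxamate, SE 0.106, adjusted p = 2.03e-05 by edgeR), and Cdyl, a chromodomain protein, at -0.32. The 2 higher by edgeR were Parp1, which acts at DNA breaks, at 0.34 and Phf7, a histone ubiquitin ligase of spermatids, at 0.18. With both compounds against vehicle 3 rose (Dot1l at 0.34, Kat5 at 0.32 and Epc1 at 0.30) and 2 fell, where 18% of all genes were called. Of 6 protamine modifying enzymes none was called with oxamate, also at an unadjusted p under 0.05 (0 genes) and with DESeq2, and with octyl-L2HG added Camk4, a kinase of PRM2, was at -0.36 and Srpk1, a kinase of PRM1, at 0.20. Camk4 was also the 1 gene of that list called against vehicle, at -0.35. The call of Pygo2 was lost without library 2 or 3, that of Parp1 without library 5, 6 or 8, that of Phf7 without any of libraries 5 to 9, and that of Srpk1 without library 5, 7, 8 or 9 (adjusted p by edgeR up to 0.186).

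Genes for storage and translation of these mRNAs were mostly not called. Of 14 tested, 1 rose with oxamate (Piwil1 at 0.26), 3 rose with octyl-L2HG added (the germ cell helicase Ddx4 at 0.27 and the poly(A)-binding proteins Pabpc2 at 0.24 and Pabpc1 at 0.23) and 1 with both compounds against vehicle (Dazap1 at 0.22), where 3.97%, 3.18% and 7.48% of all genes tested were called higher. None was called lower by edgeR or DESeq2, where 1.22%, 8.06% and 10.6% of all genes were, and at an unadjusted p under 0.05 1 was lower with oxamate and 1 with octyl-L2HG added. These 5 calls were each lost without at least 3 of the 9 libraries in turn, with adjusted p by edgeR up to 0.250 (Pabpc1 without library 7).

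Among 12 transcription activators of the protamine and transition protein genes, Crem itself, named here after its values were seen, had log2 fold changes of -0.09, -0.08 and -0.17 with adjusted p of 0.544, 0.494 and 0.0735 by edgeR. Fhl5, the testis coactivator of CREM, was at -0.31 against oxamate (SE 0.068, adjusted p = 0.00413) and -0.50 against vehicle (SE 0.068, adjusted p = 2.00e-05 by edgeR). Kif17, the kinesin that carries this coactivator out of the nucleus, rose with oxamate at 0.35 and fell with octyl-L2HG added at -0.24. Kdm3a, a histone demethylase that activates Prm1 and Tnp1, rose by 0.27 on the log2 scale with oxamate and was at 0.24 with both compounds against vehicle. In all, 2 of the 12 rose and none fell with oxamate, where 3.97% of all genes were called higher and 1.22% lower. With octyl-L2HG added 1 rose (Taf7l2 at 0.32) and 4 fell, among them the testis TFIID subunit Taf7l at -0.68 and Sox30 at -0.29, where 3.18% of all genes were called higher and 8.06% lower. Against vehicle 3 rose (Tcfl5 at 0.27, Rfx2 at 0.25 and Kdm3a) and 2 fell (Taf7l at -0.53 and Fhl5), where 7.48% of all genes were called higher and 10.6% lower. The second Kif17 call was lost without library 5, 7, 8 or 9, that of Sox30 without library 3, 5, 6, 8 or 9, that of Rfx2 without library 2 or 7 and the first of Kdm3a without library 1 (adjusted p by edgeR up to 0.175).

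Some other transcripts of the late spermatid list, which also holds genes active earlier such as Ldhc, were called lower. Of 20 tested, 2 were lower with oxamate, 7 with octyl-L2HG added and 10 with both compounds against vehicle by edgeR, where 1.22%, 8.06% and 10.6% of all genes were called lower. Their medians were -0.06, -0.16 and -0.18 on the log2 scale, beside -0.01, -0.04 and -0.05 over all genes tested. Of the 10, Tssk1 and Tssk2 are also among the RS markers. None was called higher by edgeR, whereas with octyl-L2HG added 1 was higher with DESeq2 and 1 at an unadjusted p under 0.05, and with oxamate 1 was higher at an unadjusted p under 0.05. Fscn3, an actin-bundling fascin of the testis, was at -0.35 with oxamate and -0.65 with octyl-L2HG added (adjusted p = 0.00725 and 2.18e-05 by edgeR). Spem1, needed to shed the spermatid cytoplasm, was at -0.30 and -0.53 (adjusted p = 0.0143 and 6.34e-05 by edgeR), and its oxamate call was lost without library 1, 2 or 6, with adjusted p up to 0.0739. With both compounds against vehicle they were at -1.01 and -0.82, beside Spata3 at -0.55 and Spata18 at -0.34. The rest of the 10, past the 4 to be named, were Akap4 at -0.24, Oaz3, Gapdhs and Tssk2 each at -0.23, Tssk1 at -0.20 and Odf1 at -0.19. Other genes of the list were not called against vehicle, among them Odf2 at 0.11, Akap3 at -0.13, Cabyr at -0.15 and Smcp at -0.07. The Akap4 call was lost without library 8 and that of Odf1 without library 1, 3, 7, 8 or 9 (adjusted p by edgeR up to 0.125). Those of Tssk1, Gapdhs and Tssk2 against vehicle were lost in 5, 3 and 1 of the 9 fits without a library (adjusted p by edgeR up to 0.131). Of the 7 calls with octyl-L2HG added, those of Cabyr and Odf1 were each lost in 4 of these fits, that of Gapdhs in 2 and that of Spata3 in 1.

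**Figure D4:**
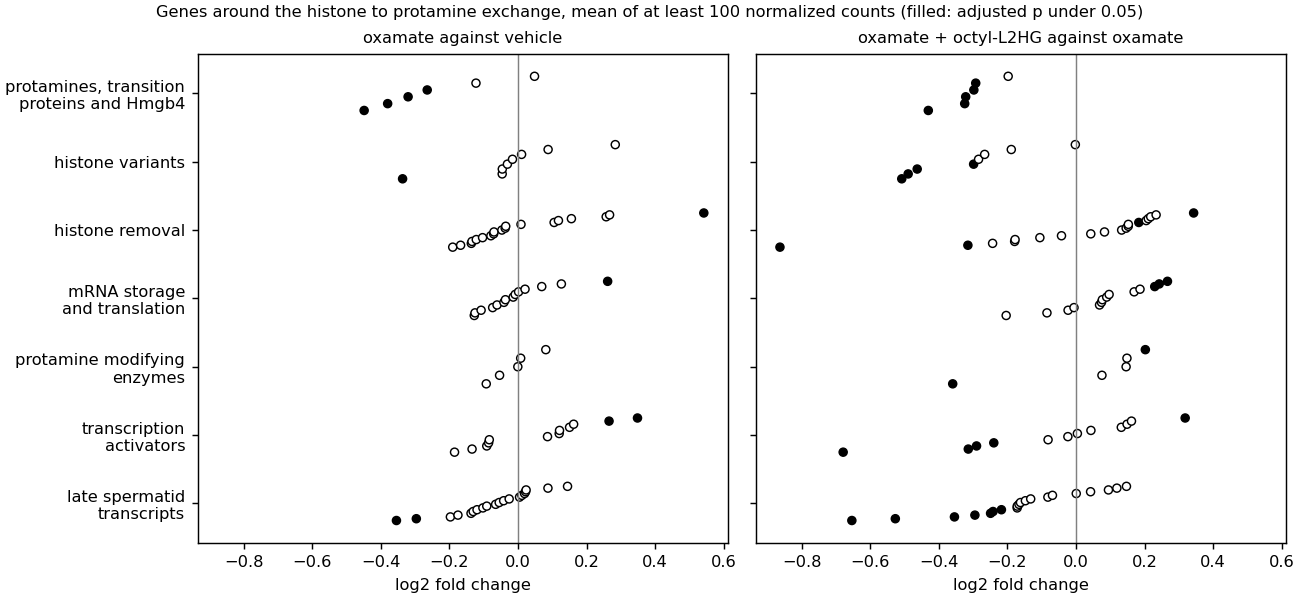
Log2 fold change of the genes with a mean of at least 100 normalized counts in 7 lists around the histone to protamine exchange, 1 circle per gene, filled where the adjusted p is under 0.05, on a common axis; vertical spread within a list only separates the points. With oxamate (left) 4 of the 6 members are filled and below 0, and with octyl-L2HG added (right) filled circles lie only below 0 for the members, histone variants and late spermatid transcripts, only above 0 for storage and translation, and on both sides for the removal factors, modifying enzymes and transcription activators.

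Of the 3 paralogs of Hmgb4 tested, Hmgb2, which is below the mean of 100 normalized counts required of named genes and is named here after its values were seen, was at -0.71 with oxamate (adjusted p = 0.00782) and 0.50 with octyl-L2HG added (adjusted p = 0.0482 by edgeR). The second call was lost in 7 of the 9 fits without a library, with adjusted p up to 0.237. No paralog was called with both compounds against vehicle.

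The genes whose pattern over the 9 libraries was most like each member were found by the root mean square difference in log2 normalized counts scaled to library size, taken from the vehicle mean, among 10714 other genes. For Prm1 these were 1700001K19Rik (0.0675), Prm2 (0.0701) and Ttc24 (0.0712), and for Prm2 they were Tex44 (0.0437), 1700027A15Rik (0.0462) and Tnp2 (0.0641). Tnp2 was followed most closely by Spem1 (0.0507), Glul (0.0577) and Prm2 (0.0641). Prm1, Prm2 and Tnp2 therefore each had another member among the 3 nearest genes. For Tnp1 the nearest were Rab11fip4os2 (0.0520), 1700101O22Rik (0.0532) and Tmem144 (0.0600), and its nearest member, Prm2, ranked 53rd. For Prm3 they were Lpp (0.0487), Stpg3 (0.0539) and Osgin1 (0.0580), and its nearest member, Tnp1, ranked 254th. By this measure Prm3 stood apart from the genes it lies between on the chromosome.

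Markers of other testis cells were followed beside these results. Of 10 spermatocyte genes none was called with oxamate and 1, Sycp2 at 0.37, with octyl-L2HG added, where 5.19% and 11.2% of all genes tested were called. None was called with both compounds against vehicle, where 18% of all genes were. The list summed to 895 to 926 CPM with oxamate and 939 to 969 with both compounds. The 8 genes of spermatogonia summed to 7.82 to 9.10 CPM in the treated libraries, with 1 called (Sohlh1, at between 0 and 7 reads a library). It was lower with both compounds against vehicle, where 10.6% of all genes were called lower. Sertoli genes summed to at most 2.28 CPM, with 4 of 8 tested and Fshr at 0 in all libraries, where a limit of 3 reads a library allows up to 0.0928 CPM. Leydig genes summed to at most 1.12 (4 of 6 tested) and macrophage and endothelial genes to at most 5.21 (5 of 5). None of the 3 lists had a called gene, where 5.19%, 11.2% and 18% of all genes were called in the 3 comparisons. Some of these genes, such as Sox9, Wt1, Lhcgr and Cd68, had only 0 to 4 reads a library, which leaves little room for a call. The 5 myoid genes summed to 3.59 to 4.18 with vehicle, 3.31 to 3.70 with oxamate and 2.63 to 2.89 with both. Of these Cnn1 was called lower in both comparisons with vehicle, where 1.22% and 10.6% of all genes were called lower. Sohlh1 and Cnn1 have means below that required of named genes, and their names were picked with the values known. The Sohlh1 call was lost without library 1, 2, 3, 7 or 9 and the first Cnn1 call without library 3 (adjusted p by edgeR up to 0.141). Whether cell make-up has a part in the member results was not tested.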

How the data were processed

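RNA was sequenced from RS in 9 polyA-selected libraries made with a stranded kit, 3 per group. Per the methods and processing notes, the authors trimmed reads with cutadapt 2.10, aligned them with TopHat2 2.1.1 to build GRCm39 and counted reads per gene with HTSeq. The strand setting is not given in the sources used here, so reads of overlapping antisense genes, such as Hmgb4os beside Hmgb4, may not be told apart. The authors deposited the raw count per gene and a normalized signal, the count divided by 1 DESeq2 size factor per library. Genes were named by the symbols of the table.

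The counts of the 25128 genes with at least 10 reads in all went into edgeR 4.0.16 under R 4.3.3 (TMM, robust quasi-likelihood fit of all 9 libraries, group as the only term, Benjamini-Hochberg threshold 0.05). The test was first run on simulated counts with the same dispersion for every gene and no library that stood apart. That run does not cover the spread between libraries seen here. Standard errors are the log2 fold change divided by the root of F. Alternatives were DESeq2 1.42.0, other scalings and filters, fits of only the groups compared, removal of a lowess trend (span 0.3) with transcript length or GC content, and each library left out. Lengths came from a GRCm38 annotation matched by gene identifier for 99.6% of tested genes. Per list and comparison, up to 4 called genes with the largest change and a mean of at least 100 normalized counts were to be named, with the 3 genes most like each called member. Members and lists were chosen with earlier results of these data known. Counting intervals and limits cover counting error only.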

Additional observations from a re-analysis of the deposited data

How the results depend on the processing

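Prm1 and Prm2 kept their direction and their calls in all 3 comparisons under each of the 18 alternatives. With the length trend removed, Prm3 was at 0.013 with oxamate, -0.22 with octyl-L2HG added and -0.21 with both compounds against vehicle, Tnp1 at -0.13 and Tnp2 at -0.21 with oxamate and Hmgb4 at 0.010 with both against vehicle. With only the groups compared in the fit, Tnp1 was at -0.27 with oxamate and no longer called (adjusted p = 0.0772 by edgeR). Leaving out 1 library at a time gave -0.32 to -0.22 for Tnp1 with oxamate, -0.39 to -0.27 for Prm3 with octyl-L2HG added, and, for Hmgb4, -0.035 to 0.18 with oxamate and -0.33 to -0.11 with octyl-L2HG added, the lowest of these without oxamate library 4. The log2 ratio of Prm1 to Prm2 was 0.0946 lower with both compounds than with vehicle, whereas that of Prm1 plus Tnp1 to Prm2 plus Tnp2 was 0.0758 higher (exact permutation p = 0.025 over the 3 groups), since Tnp2 fell by more than Tnp1. Both ratios are of raw counts and keep any trend with transcript length.

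Over all genes, 1303 were called with oxamate against vehicle, 723 with only the groups compared, 1960 with the GC trend removed and 659 to 2288 without 1 library, the fewest without vehicle library 2 and the most without oxamate library 4. With octyl-L2HG added the 2823 calls became 1396 to 4415, with both compounds against vehicle the 4534 became 2970 to 6194, and for any difference the 4974 became 3154 to 7328. In these last 3 cases the fewest calls came without library 7 and the most without library 4. The causes were not tested. No paired analysis was possible because the library numbers run from 1 to 9 and none is shared between groups. With 3 libraries a group, an exact test of 1 value between 2 groups cannot go below p = 0.1.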

Other observations

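Genes used as RS markers were called in both directions. Of the 10 RS markers, none was called with oxamate alone by edgeR or DESeq2, and 0 passed an unadjusted p of 0.05. With octyl-L2HG added 3 fell and none rose by edgeR, where 8.06% of all genes were called lower, and with DESeq2 3 fell and 1 rose. With both compounds against vehicle 3 rose, Spaca7 at 0.32, Acrv1 at 0.25 and Acr at 0.21 on the log2 scale, and 5 fell, among them Spaca4 at -0.45, Tex36 at -0.31 and Catsper3 at -0.24 (edgeR's quasi-likelihood test), where 7.48% of all genes were called higher and 10.6% lower. Tssk1 and Tssk2 are among the 5 and are also in the late spermatid list. The Spaca7 call was lost without library 7, that of Acrv1 without library 1 or 9 and that of Acr without library 2, 7 or 8, with adjusted p by edgeR up to 0.166. Of the 5 that fell, Tssk1 lost its call in 5 of the 9 fits without a library and Tssk2 in 1 (adjusted p by edgeR up to 0.131). Against oxamate the calls of Catsper3, Tex36 and Spaca4 were lost in 4, 2 and 1 of these fits. The sum of the 10 RS markers was 2424 to 2460 CPM with vehicle, 2404 to 2435 with oxamate and 2229 to 2300 after both treatments. The gene whose pattern stood next to that of Prm2, after Tex44, was 1700027A15Rik, which by RefSeq's gene order is the direct neighbour of Tnp1 on chromosome 1. Its log2 fold change was -0.36 with oxamate and -0.31 with octyl-L2HG added, beside -0.26 and -0.29 for Tnp1, and its calls were lost without library 2 or 5 and without library 8 or 9.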
